A study of Mus musculus with 18 samples.

Results

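The effect of Esco2 loss on gene expression was compared between 2 stages of limb growth, as the mutant effect (mutant minus control) at E11.5 minus that at E10.5, where E stands for embryonic day. It was estimated from RNA sequencing of mouse forelimb buds in 12 of the study's 18 libraries, 3 in each of 4 groups, and 19565 genes had enough counts to be tested. Mutants were Esco2fl/fl;Prrx1-CreTg/0, with Esco2 alleles flanked by loxP sites and a Cre transgene driven by Prrx1 sequences active in limb mesenchyme. Controls were Esco2fl/fl without Cre, so that all groups carried the floxed alleles and effects of Cre and of Esco2 loss cannot be told apart. Ectoderm, vessels, blood, immigrating muscle precursors and nerves lie outside or largely outside the Prrx1 lineage and are present in a whole bud. Whether replicate libraries stem from different embryos or litters is not stated in the labels, and the p-values therefore measure the spread between these libraries, which may be technical. The labels' description code begins with a number that some libraries share, across genotypes too, and what it stands for is not given.

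Esco2 acetylates cohesin during DNA replication and so establishes cohesion between sister chromatids. Cells that divide without it missegregate chromosomes, and DNA damage or mitotic failure activates the transcription factor p53, whose targets arrest the cell cycle, start cell death and, through Mdm2, limit p53 itself. Between these stages the limb mesenchyme of a normal forelimb grows out under signals from the apical ectodermal ridge and the Shh-producing posterior margin, and its core condenses to cartilage under Sox9, Sox5 and Sox6.

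Promoter windows are shown for 4 genes whose mutant effect differed between the stages: a pair of p53 targets, whose rise narrowed, and a pair of cartilage matrix genes, one lower in mutants late and one higher in mutants early. RefSeq promoter windows on GRCm38.p6 were at hand for 20 of the 26 genes with a called change, and Col2a1 is among the 6 without one. The 250 bases before the start site are given 5′ to 3′ on the plus strand, on which all 4 genes lie, at chr17:29090729-29090978 for Cdkn1a, chr3:105704349-105704598 for Inka2, chr17:34038888-34039137 for Col11a2 and chr4:130944135-130944384 for Matn1. The Col11a2 window's start site lies 299 bases from the annotated start of the gene, and that of Cdkn1a 3 bases from it. Cdkn1a and Inka2 have 2 windows each, and the one nearest the annotated start is shown. Capitals mark matches on either strand to the TATA box (TATAAA), the GC box (GGGCGG), the CCAAT box, a SOX core motif (AACAAT) and the p53 half-site consensus.
Cdkn1a: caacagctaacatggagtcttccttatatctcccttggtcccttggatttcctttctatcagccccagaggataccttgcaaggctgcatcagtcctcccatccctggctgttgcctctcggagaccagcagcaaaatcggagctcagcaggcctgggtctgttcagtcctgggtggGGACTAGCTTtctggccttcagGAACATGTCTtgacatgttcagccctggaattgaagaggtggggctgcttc
Inka2: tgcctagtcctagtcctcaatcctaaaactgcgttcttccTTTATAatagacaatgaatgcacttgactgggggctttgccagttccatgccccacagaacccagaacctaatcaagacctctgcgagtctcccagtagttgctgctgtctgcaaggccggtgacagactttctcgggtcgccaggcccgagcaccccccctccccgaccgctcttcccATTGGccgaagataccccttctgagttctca
Col11a2: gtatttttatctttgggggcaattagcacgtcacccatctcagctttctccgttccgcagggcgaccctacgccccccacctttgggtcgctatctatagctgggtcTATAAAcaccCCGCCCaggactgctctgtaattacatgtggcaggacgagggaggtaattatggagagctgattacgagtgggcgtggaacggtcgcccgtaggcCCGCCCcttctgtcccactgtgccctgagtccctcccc
Matn1: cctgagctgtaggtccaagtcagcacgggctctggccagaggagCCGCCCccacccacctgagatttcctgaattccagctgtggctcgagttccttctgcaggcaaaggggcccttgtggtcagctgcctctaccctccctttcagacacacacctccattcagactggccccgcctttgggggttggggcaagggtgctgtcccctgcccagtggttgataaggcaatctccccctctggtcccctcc

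The Cdkn1a window held p53 half-site matches at 73 to 64 and at 51 to 42 bases before the start site, each of which reads as a match on both strands. No p53 half-site letters stood in the Inka2 window shown, and the other window of each gene is not described here. Over all 32851 RefSeq windows of this length, 7.1% held a p53 half-site, 32.7% GGGCGG, 33.8% CCAAT, 12.4% TATAAA and 9.4% AACAAT. A match is a description of the letters and not a binding site.

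Total counts ran from 35034237 to 50213799 per library. Tbx5, the forelimb identity factor, lay at 152 to 261 CPM (counts scaled to a common library size) in the control libraries and at 52.5 to 82.5 in the mutant libraries, and Prrx1 at 541 to 592 and 157 to 290. Esco2 counts cover all exons and test the deletion weakly: the controls had 28.8 to 34.6 CPM at E10.5 and 21.3 to 31.9 at E11.5, the mutants 19.5 to 22.9 and 23.2 to 24.5. Its log2 difference passed the test at E10.5 (-0.53 ± 0.13 SE) and not at E11.5 (-0.26 ± 0.13), and the change between them was 0.27 ± 0.19 (adjusted p = 0.54). Haemoglobin transcripts took 0.634% to 1.96% of counts in E10.5 mutants, with the highest share in replicate 3, 0.388% to 0.943% in E11.5 mutants and 0.294% to 0.6% in controls. Mitochondrial transcripts took 0.987% to 1.08% of counts in E10.5 mutants against 0.531% to 0.758% in E10.5 controls, and 0.695% to 0.995% against 0.651% to 0.728% at E11.5. Of 12 mitochondrial genes, 8 rose early and 3 late, where 13.8% and 14.8% of all genes did. Their median effect went from 0.67 to 0.28, with 0 changes called by edgeR, DESeq2 or limma-voom. The change had an unadjusted p under 0.05 in 1 of them, against 14.6% of all genes. The part of the haemoglobin or mitochondrial share in the results was not tested. Control E11.5 replicate 1 stood apart from the other E11.5 controls on the second principal component (8.09 against -14.3 and -19.2), on the side of the E10.5 controls, which lay at 34.1 to 39.3. Mutant E11.5 replicate 3 stood apart from the other E11.5 mutants on the first component (24 against 5.74 and 3.14). It lay on the side of the E10.5 mutants, at 42.7 to 52.5. The first and second components held 44.5% and 20.8% of the variance. In bulk tissue, fewer cells of a type and less RNA per cell cannot be told apart.

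The larger part of the calls at each stage was shared with the other stage, and in this fit the change of effect passed the test in few genes. At E10.5, 2693 genes were higher and 2612 lower in mutants (27.1% of the genes tested at an adjusted p under 0.05), and at E11.5 2891 were higher and 3143 lower (30.8%). In 3312 genes the effect was called at both stages in the same direction, 1658 higher (8.47% of the genes tested) and 1654 lower (8.45%), which is 62.4% of the E10.5 calls and 54.9% of the E11.5 calls. The change itself was called in 26 genes (0.133%), 7 with an effect that moved up (0.0358%) and 19 with an effect that moved down (0.0971%). A further 4663 genes were called at 1 stage only, and in 14 of these the change passed the test, so passing at a single stage did not by itself show a difference between stages. At an unadjusted p under 0.05 the change had 1255 genes upward (6.41%) and 1594 downward (8.15%), together 14.6% of the genes tested. The threshold alone would pass a share of 0.05, so the 26 calls need not hold all genes that differ.

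The number of called changes rested on single libraries far more than their direction did. Without control E11.5 replicate 1, 139 genes moved up and 223 down, and without mutant E11.5 replicate 1 it was 71 and 98; in both fits all 26 genes stayed called. Leaving out mutant E10.5 replicate 3 left 0 and 5, and leaving out any 1 of the other 9 libraries left 7 to 26 genes in all. DESeq2 called 162 and 403. A block for the first number of the description code gave 0 and 11 calls, of which 1 (Col11a2, adjusted p = 0.0488) is among the 26; the other 25 had adjusted p-values of 0.0704 to 0.353 under it, so that the calls given for these 25 genes hold only without this block. The size of the change moved by over 1.5 times under it in Cdkn1a (-0.51), Samd12 (-1.70), Socs2 (-0.55), Eva1c (-2.45), Matn1 (-3.90), AU015836 (-8.87) and 6030408B16Rik (2.00). In that fit the 4 libraries with a code of their own add nothing, and the effect at E11.5 rests on 1 control and 1 mutant with a shared code, control replicate 1 and mutant replicate 3, whose deviations from their group means correlated across genes (0.491). All 26 genes kept the sign of their change in every one of these fits, and Inka2, Rflna, Samd12, Col2a1 and Col11a2 were called in each of the 12 fits that left out 1 library.

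**Figure D1:**
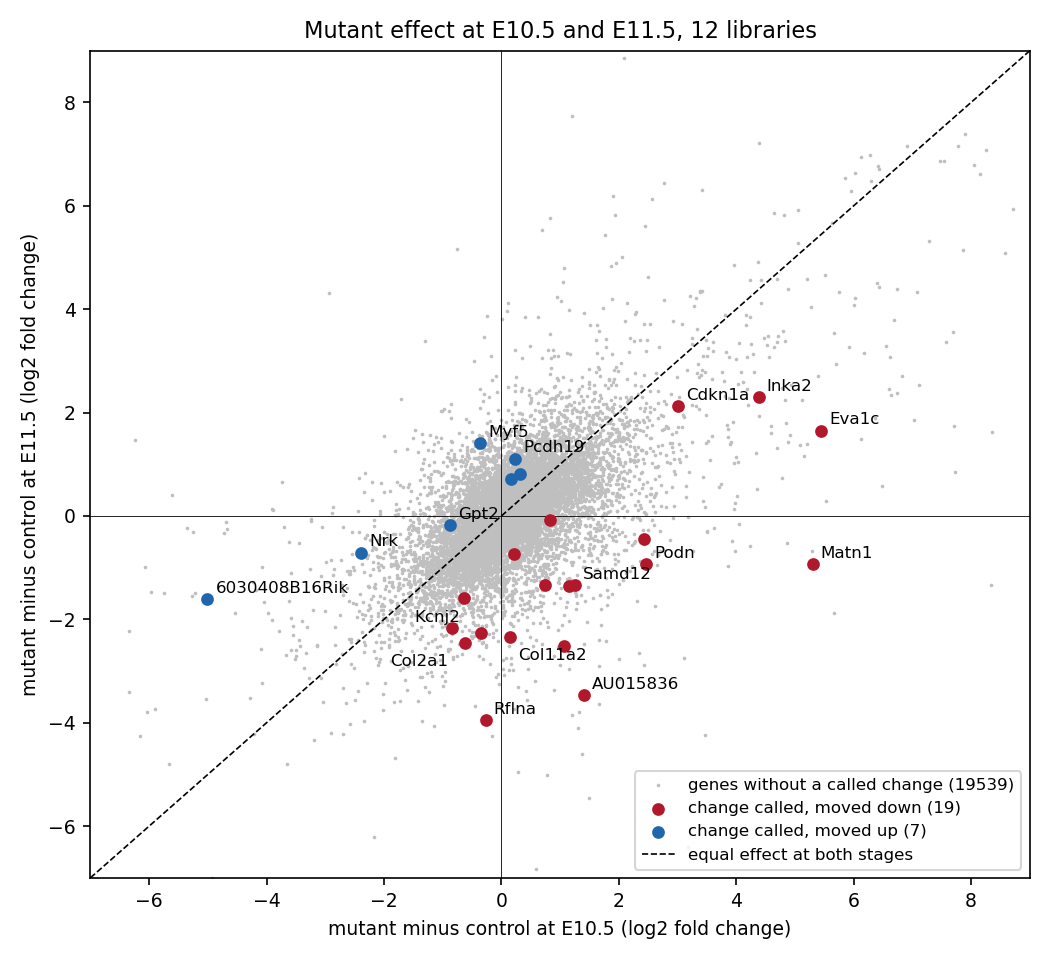
Mutant effect at E10.5 (horizontal axis) against E11.5 (vertical axis), both as log2 fold change of mutant over control, for the genes tested; 3 genes lie outside the axes. Grey points are genes without a called change, red and blue points the 19 and 7 with a called change downward and upward, and the dashed line marks equal effects; most grey points with large effects share their sign at both stages, while the red points lie well below the line.

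What the 26 genes did between stages differed by direction. Of the 19 whose effect moved down, a stage difference was called in controls in 17, all of them rises, and in mutants in 6, all of them falls. Over all genes tested, a stage difference was called in 18.9% in controls and in 6.31% in mutants. Of the 7 whose effect moved up, 6 rose with stage in mutants, and in controls 3 fell and 1 rose. These stage differences come from the same 12 libraries as the change and describe how it was made up. Control E11.5 replicate 1 had the lowest level of its group in 14 of the 19 genes that moved down.

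The p53 response was strong at both stages, and in 2 of its targets edgeR called a smaller rise at E11.5. Of 43 p53 targets tested in 3 lists, 34 rose and 1 fell at E10.5, where 13.8% of all genes rose, and 33 rose and 3 fell at E11.5, where 14.8% did. The median effect was 0.94 at E10.5 and 0.75 at E11.5 (log2), against 0.018 and 0.0097 over all genes. The change lay below 0 in 32 of the 43, with a median of -0.30. An unadjusted p under 0.05 was found downward in 15 and upward in 2, against 8.15% and 6.41% of all genes. The change passed the edgeR test over all genes in 2, Cdkn1a and Inka2. DESeq2 called a downward change in 3 genes of arrest and feedback, 1 of death and 3 of other roles. For limma-voom these counts were 1, 0 and 1. These lists were chosen with earlier results of the same libraries known.

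Cdkn1a (ENSMUSG00000023067.14), which encodes the cell cycle inhibitor p21, had 24.1, 25.5 and 21.4 CPM in the E10.5 controls and 176, 192 and 204 CPM in the E10.5 mutants. At E11.5 the controls had 32.4, 37.1 and 37.2 CPM and the mutants 157, 139 and 169. Mutants lay above controls in every library at both stages, while the controls were higher at E11.5 than at E10.5. The rise was 8.06-fold at E10.5 (log2 3.01 ± 0.09 SE) and 4.35-fold at E11.5 (2.12 ± 0.09), a change of -0.88 ± 0.13 (95% interval -1.16 to -0.61, adjusted p = 0.0174). The call was lost without control E10.5 replicates 1 or 3, control E11.5 replicates 2 or 3 or mutant E10.5 replicate 3, with adjusted p-values up to 0.0636 and a change of -0.95 to -0.81 over the 12 fits.

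Inka2, which encodes an inhibitor of the kinase PAK4, had 1.01, 1.48 and 1.06 CPM in the E10.5 controls and 23.9, 23.6 and 26.5 in the E10.5 mutants. At E11.5 it had 3.15, 4.15 and 4.82 CPM in controls and 18.7, 19.1 and 21.8 in mutants. All mutant libraries were far above all controls, and the gap closed mostly from the control side, where Inka2 rose with stage (log2 1.77, adjusted p = 0.00016), against -0.31 in mutants (adjusted p = 0.275). The rise went from 20.8-fold to 4.92-fold, a change of -2.08 ± 0.24 (-2.59 to -1.57), which had the smallest adjusted p of all genes tested (0.0084).

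The other p53 targets are given by role. Among 14 genes of arrest and feedback, 13 rose early and 11 late, and the change was called in Cdkn1a. Mdm2, the ligase that limits p53, had 64.4 to 69.9 and 142 to 163 CPM in E10.5 controls and mutants and 65.2 to 68.1 and 114 to 134 at E11.5, with log2 rises of 1.17 and 0.86 and a change of -0.30 ± 0.10 (-0.53 to -0.08, adjusted p = 0.215). Btg2, an antiproliferative gene, had a change of -0.63 ± 0.15 (adjusted p = 0.103), and Trp53inp1 rose at E10.5 (1.08) but had 0.21 at E11.5 (change -0.87 ± 0.23, adjusted p = 0.14). Trp53 itself rose at E11.5 (0.35) and had 0.19 at E10.5, with a change of 0.16 ± 0.11.

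Among 13 death genes, 10 rose at each stage, where 13.8% and 14.8% of all genes did. The change passed the edgeR test in 0, limma-voom in 0 and DESeq2 in 1 (downward). An unadjusted p under 0.05 was found downward in 3 and upward in 2, against 8.15% and 6.41% of all genes. Fas, a death receptor, had 0.168 to 0.341 CPM in E10.5 controls and 5.25 to 7.64 in mutants, and 0.266 to 0.459 against 3.53 to 5.35 at E11.5 (change -1.06, -1.99 to -0.13, adjusted p = 0.294). Aen, an exonuclease gene, moved the other way (0.97 to 1.40, change 0.43 ± 0.15, adjusted p = 0.217). Bax, which permeabilises mitochondria in apoptosis, had 54.7 to 62.4 against 99.1 to 107 CPM at E10.5 and 45.5 to 48.5 against 79 to 95.2 at E11.5, so that its rises of 0.84 and 0.87 differed by 0.03 with an interval of -0.20 to 0.27. Among 16 targets in metabolism, repair and other roles, Ddit4l, which restrains mTOR, had rises of 3.01 and 1.73 (change -1.29 ± 0.26, adjusted p = 0.0619), and Sesn2, a stress-induced metabolic regulator, of 1.99 and 1.54 (change -0.45, -0.83 to -0.07).

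**Figure D2:**
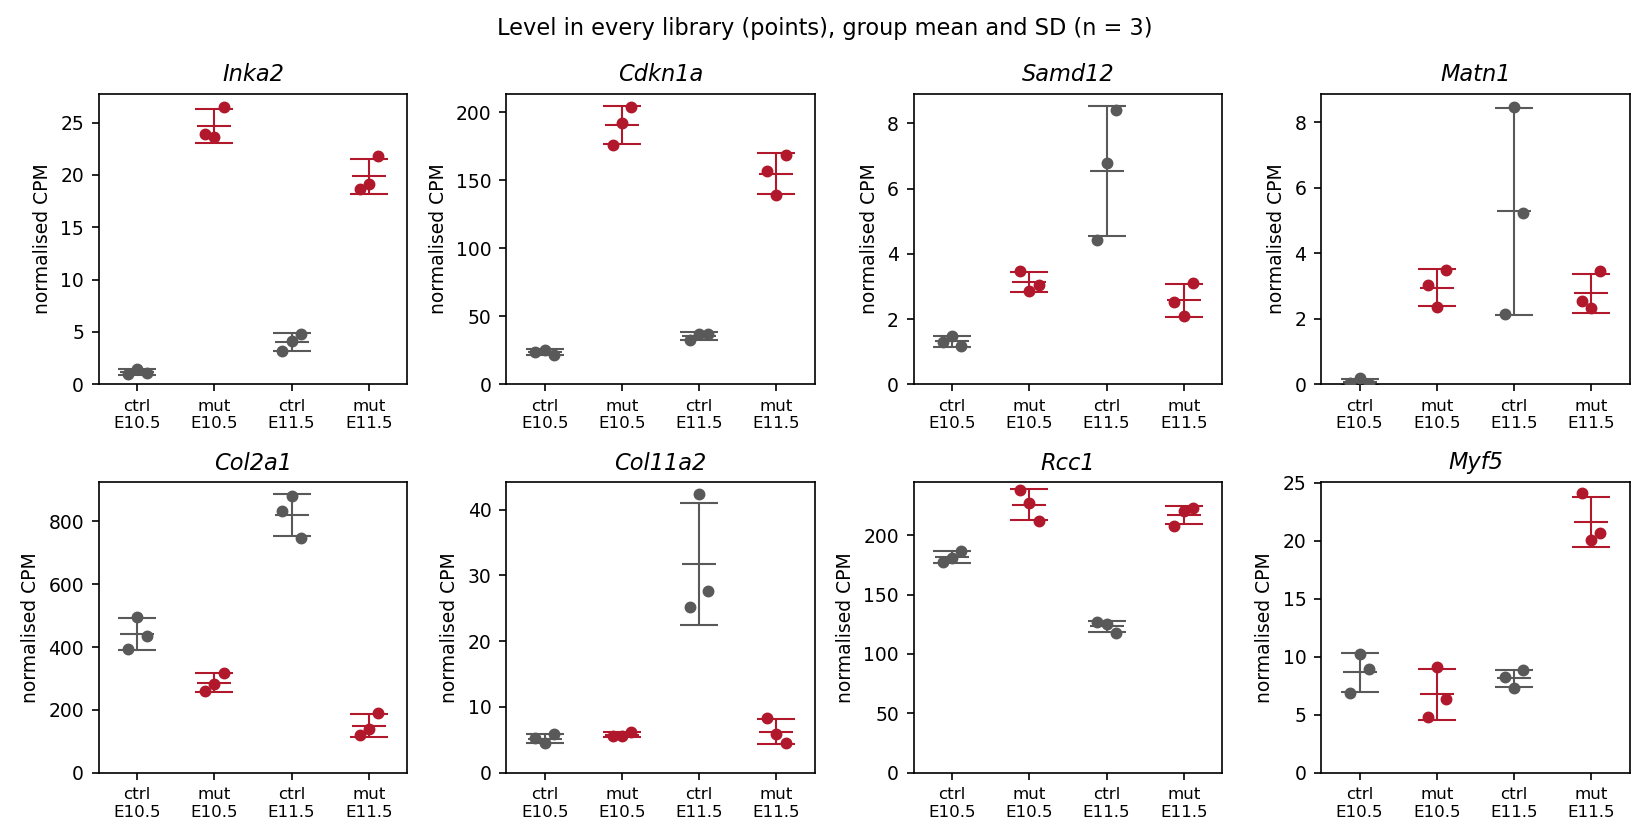
Normalised CPM of 8 genes in each of the 12 libraries (points; grey controls, red mutants), with the group mean and SD (n = 3), by genotype and stage. In the upper row, Inka2, Cdkn1a, Samd12 and Matn1 stand higher in E10.5 mutants than in E10.5 controls and the controls are higher at E11.5; in the lower row Col2a1 and Col11a2 rise with stage in controls only, Rcc1 is lower in E11.5 controls than in E10.5 controls and Myf5 is higher in E11.5 mutants.

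The median effect on genes of cartilage differentiation was further below 0 at E11.5 than at E10.5. Of 25 tested, 2 rose and 14 fell at E10.5, where 13.8% and 13.4% of all genes did, and none rose and 20 fell at E11.5, where 14.8% and 16.1% did. The median effect went from -0.63 to -2.16 (log2). The change was called downward in 5: Col2a1, Sox6 and Wwp2, which stood below controls at both stages, Col11a2, which was at 1.11-fold of controls at E10.5, and Matn1, which was higher in mutants at E10.5. That compares with 0.0971% of all genes tested. DESeq2 called 9 and limma-voom 2. Of the 25, 12 had an unadjusted p under 0.05 downward and 0 upward, against 8.15% and 6.41% of all genes. Summed CPM over the list lay at 1170 to 1420 in E10.5 controls and 2190 to 2490 in E11.5 controls, and at 699 to 728 and 529 to 618 in mutants.

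Col2a1, the main collagen of cartilage, had 393, 494 and 435 CPM in E10.5 controls and 832, 879 and 747 at E11.5. The mutants had 260, 282 and 318 CPM at E10.5 and 119, 139 and 190 at E11.5. Controls and mutants did not overlap at either stage, and they moved in opposite directions with stage (log2 0.89 in controls, -0.95 in mutants, adjusted p = 0.00252 and 0.0045). The fall went from 1.54-fold to 5.50-fold, a change of -1.84 ± 0.21 (-2.31 to -1.37, adjusted p = 0.0111).

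Col11a2, a partner collagen of the same fibrils, had 5.22, 4.46 and 5.93 CPM in E10.5 controls and 5.6, 5.52 and 6.18 in E10.5 mutants. At E11.5 the controls had 25.2, 42.3 and 27.6 CPM and the mutants 8.29, 5.94 and 4.57. The groups overlapped at E10.5 and were apart at E11.5, where the mutants had a stage difference of 0.12 (adjusted p = 0.817) and the controls one of 2.61 (adjusted p = 0.000144). The change was -2.49 ± 0.31 (-3.16 to -1.82, adjusted p = 0.0111). Rflna, which encodes an actin-binding regulator of cartilage and skeletal growth, had the same shape: 1.04 to 1.18 against 0.835 to 1.03 CPM at E10.5, and 6.15, 14.3 and 12.7 against 1.01, 0.516 and 0.631 at E11.5 (change -3.68 ± 0.45, adjusted p = 0.00973).

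Sox6, a cofactor of Sox9, had 16.4, 26.3 and 17.6 against 12.4, 10.7 and 10.7 CPM at E10.5, and 49.6, 38.2 and 41.6 against 9.7, 9.53 and 9.76 at E11.5 (change -1.32 ± 0.22, adjusted p = 0.0404). Wwp2, a ligase gene whose intron encodes miR-140, fell by 0.63 and then by 1.58 (change -0.95 ± 0.16, adjusted p = 0.0407). Sox9 was already low at E10.5, with 108, 143 and 132 CPM in controls and 25.1, 23.1 and 18.5 in mutants, and at E11.5 it had 214, 199 and 174 against 29.5, 28.7 and 18.2. Its falls of -2.52 and -2.94 differed by -0.42 ± 0.26, which did not pass the test (-1.0 to 0.15, adjusted p = 0.488). Sox5, which acts with Sox6, fell by 1.75 and by 1.79, a difference of -0.04 ± 0.16 (-0.38 to 0.30). The calls for Sox6 and Wwp2 held in 3 of the 12 fits that left out 1 library.

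Among 12 genes of limb mesenchyme, 7 fell early and 8 late, against 13.4% and 16.1% of all genes, with medians of -0.42 and -0.82. The change was called in 0 of them by edgeR or limma-voom and in 1 by DESeq2 (downward). An unadjusted p under 0.05 was found in 3, all downward, against 8.15% of all genes. Snai2, a mesenchymal transcription factor, had 20.6 to 24.3 against 18.8 to 22.9 CPM at E10.5 and 38.3 to 52.1 against 20.2 to 24.3 at E11.5 (change -0.86 ± 0.17, adjusted p = 0.0592). Of 22 genes of fibrous matrix and tendon, 15 and 17 fell against the same shares of all genes, and the medians were -0.83 and -1.39. The median change was smaller (-0.17), with 14 genes below 0 and 8 above. The change was called in 0 by edgeR or limma-voom, and DESeq2 called 1 upward and 1 downward. An unadjusted p under 0.05 was found downward in 3 and upward in 1, against 8.15% and 6.41% of all genes. Osr2, a connective tissue transcription factor, had the highest change of the list (2.38 ± 0.54, adjusted p = 0.12). Its mutants had 1.76, 2.67 and 1.39 CPM at E10.5 and 15.2, 14.4 and 5.37 at E11.5, against controls of 23.1 to 38.5 and 35.8 to 38.9. Thbs1, which encodes thrombospondin 1, had 47.9 to 74.5 against 47.5 to 55.5 CPM at E10.5 and 150 to 157 against 67.2 to 76.5 at E11.5 (change -0.92 ± 0.18, adjusted p = 0.06), and its receptor gene Cd47 had -0.01 and -0.26 (change -0.25 ± 0.18).

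A further group stood higher in mutants at E10.5 and at or below controls at E11.5. Matn1, a cartilage matrix protein, was at 0.0421, 0.182 and 0 CPM in E10.5 controls and at 3.02, 2.35 and 3.48 in E10.5 mutants. At E11.5 the controls had 2.15, 8.46 and 5.23 CPM and the mutants 2.54, 2.32 and 3.46. The mutant libraries covered nearly the same range at both stages (stage difference -0.09, adjusted p = 0.947) while the controls rose, and the effect went from 5.30 ± 0.83 to -0.93 ± 0.50 (change -6.23 ± 0.96, -8.33 to -4.13, adjusted p = 0.0294). It was called in 7 of the 12 fits that left out 1 library. Matn4, a related matrix gene named after its values were seen, had 0.231 to 1.57 against 2.01 to 5.72 CPM at E10.5 and 20.9 to 53.8 against 3.81 to 6.31 at E11.5, and its change of -5.30 ± 0.90 did not pass (adjusted p = 0.069).

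Samd12 had 1.3, 1.48 and 1.16 CPM in E10.5 controls and 3.48, 2.87 and 3.04 in E10.5 mutants. At E11.5 its controls had 4.43, 6.77 and 8.42 CPM and its mutants 2.52, 2.1 and 3.1. Every mutant library lay above the controls at E10.5 and below them at E11.5, and both effects passed the test (1.25 and -1.34, change -2.59 ± 0.35, adjusted p = 0.0113). Hopx, which encodes a homeodomain cofactor, and Aqp1, a water channel of vessels and red cells, turned in the same way (1.15 to -1.35, and 0.74 to -1.34). In all, 26 genes (0.133% of those tested) were called at both stages in opposite directions, 20 from higher to lower and 6 from lower to higher. This set is not that of the 26 called changes, and Samd12, Hopx and Aqp1 are the only 3 genes in both. Hopx lay between 0.328 and 1.4 CPM and Aqp1 between 1.31 and 6.2 in all libraries, and their calls held in 2 and 3 of the 12 fits that left out 1 library.

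Another 4 of the downward changes began as a rise at E10.5. Podn, a leucine-rich matrix proteoglycan, had 0.316, 0.319 and 0.736 against 1.99, 2.6 and 3.1 CPM at E10.5 and 2.03, 5.3 and 5.18 against 2.65, 2.26 and 1.64 at E11.5 (change -3.41 ± 0.56). Tubb3, a neuronal tubulin, had 10.8 to 12.5 against 19.2 to 21.6 CPM at E10.5 and 12.8 to 15.2 against 12.8 to 13.6 at E11.5 (change -0.91 ± 0.15, adjusted p = 0.039). The E10.5 rise of Tubb3 was therefore not seen at E11.5, where the effect was -0.08 ± 0.11. Sorcs1, a sorting receptor, went from 2.43 to -0.45, and Eva1c, a receptor gene, from 5.44 to 1.65 with its rise still called at E11.5. The calls of these genes held in 3 or 4 of the 12 fits.

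Kcnj2, an inward rectifier potassium channel, had 7.42 to 8 against 5.4 to 6.57 CPM at E10.5 and 14.4, 21.9 and 19.2 against 3.1, 5.16 and 3.28 at E11.5 (change -1.93 ± 0.28, adjusted p = 0.0174). Socs2, a feedback inhibitor of growth hormone signalling, had 28.8 to 32 against 31.6 to 39.5 CPM and then 32.7 to 42 against 22.6 to 23.6 (change -0.95 ± 0.15, adjusted p = 0.0294). Both fell at E11.5 alone, and for both the change itself passed. Ly6c1, an endothelial and myeloid surface protein, and AU015836 completed the 19, with effects of 1.07 and 1.40 at E10.5 and -2.51 and -3.47 at E11.5; all libraries lay at or under 3.03 and 0.928 CPM.

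Of the 7 upward changes, 3 were falls that narrowed, Rcc1 rose at both stages and more at E11.5, and Phgdh, Pcdh19 and Myf5 rose at E11.5 alone. Nrk, a kinase gene on the X chromosome, had 62.4, 86.6 and 66.1 CPM in E10.5 controls and 12.7, 17.5 and 10.8 in mutants. At E11.5 it had 128, 135 and 167 CPM in controls and 93.1, 92.9 and 78.2 in mutants. Both genotypes rose with stage, the mutants by more (log2 2.69 against 1.00), and the fall went from 5.24-fold to 1.64-fold (change 1.68 ± 0.26, adjusted p = 0.0427). The fall of 6030408B16Rik narrowed too (-5.01 to -1.61), and that of Gpt2, a transaminase that makes alanine, went from -0.88 to -0.17 (change 0.71 ± 0.12, adjusted p = 0.0407).

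Rcc1, the exchange factor of the GTPase Ran on chromatin, had 177, 181 and 187 CPM in E10.5 controls and 238, 227 and 212 in mutants. At E11.5 it had 127, 125 and 118 CPM in controls and 208, 220 and 223 in mutants. The mutants had a stage difference of -0.06 (adjusted p = 0.673) while the controls fell by 0.56, and the rise grew from 0.31 to 0.82 (change 0.51 ± 0.09, adjusted p = 0.0455), the smallest called change. Phgdh, the first enzyme of serine synthesis, had 227 to 243 against 255 to 276 CPM at E10.5 and 197 to 210 against 314 to 363 at E11.5 (change 0.53 ± 0.10, adjusted p = 0.0486). Pcdh19, a protocadherin, had 24.7 to 27.8 against 29.7 to 33.5 and then 18.4 to 21.2 against 41 to 46 CPM (change 0.88 ± 0.12, adjusted p = 0.0158), and its call held in 10 of the 12 fits.

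Myf5, which starts the muscle programme, had 6.86, 10.2 and 8.93 CPM in E10.5 controls and 4.78, 9.13 and 6.37 in mutants. At E11.5 it had 8.28, 7.34 and 8.82 CPM in controls and 24.1, 20.1 and 20.7 in mutants. The groups overlapped early and were apart late (-0.36 and 1.41, change 1.77 ± 0.29, 1.15 to 2.39, adjusted p = 0.039). Pax3, the marker of muscle precursors that enter the limb, had 22.6 to 32.8 against 44.1 to 55.2 CPM at E10.5 and 9.61, 3.96 and 4 against 43.9, 35.9 and 48.2 at E11.5 (change 2.01 ± 0.44, adjusted p = 0.108). Of 22 genes of muscle precursors and early muscle, 3 rose and 4 fell at E10.5, near the 13.8% and 13.4% of all genes. At E11.5 5 rose and 1 fell, where 14.8% and 16.1% of all genes did. The change was called in Myf5 alone by edgeR. Summed over the list, E11.5 controls had 460 to 1010 CPM and E11.5 mutants 526 to 934, ranges that overlap.

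**Figure D3:**
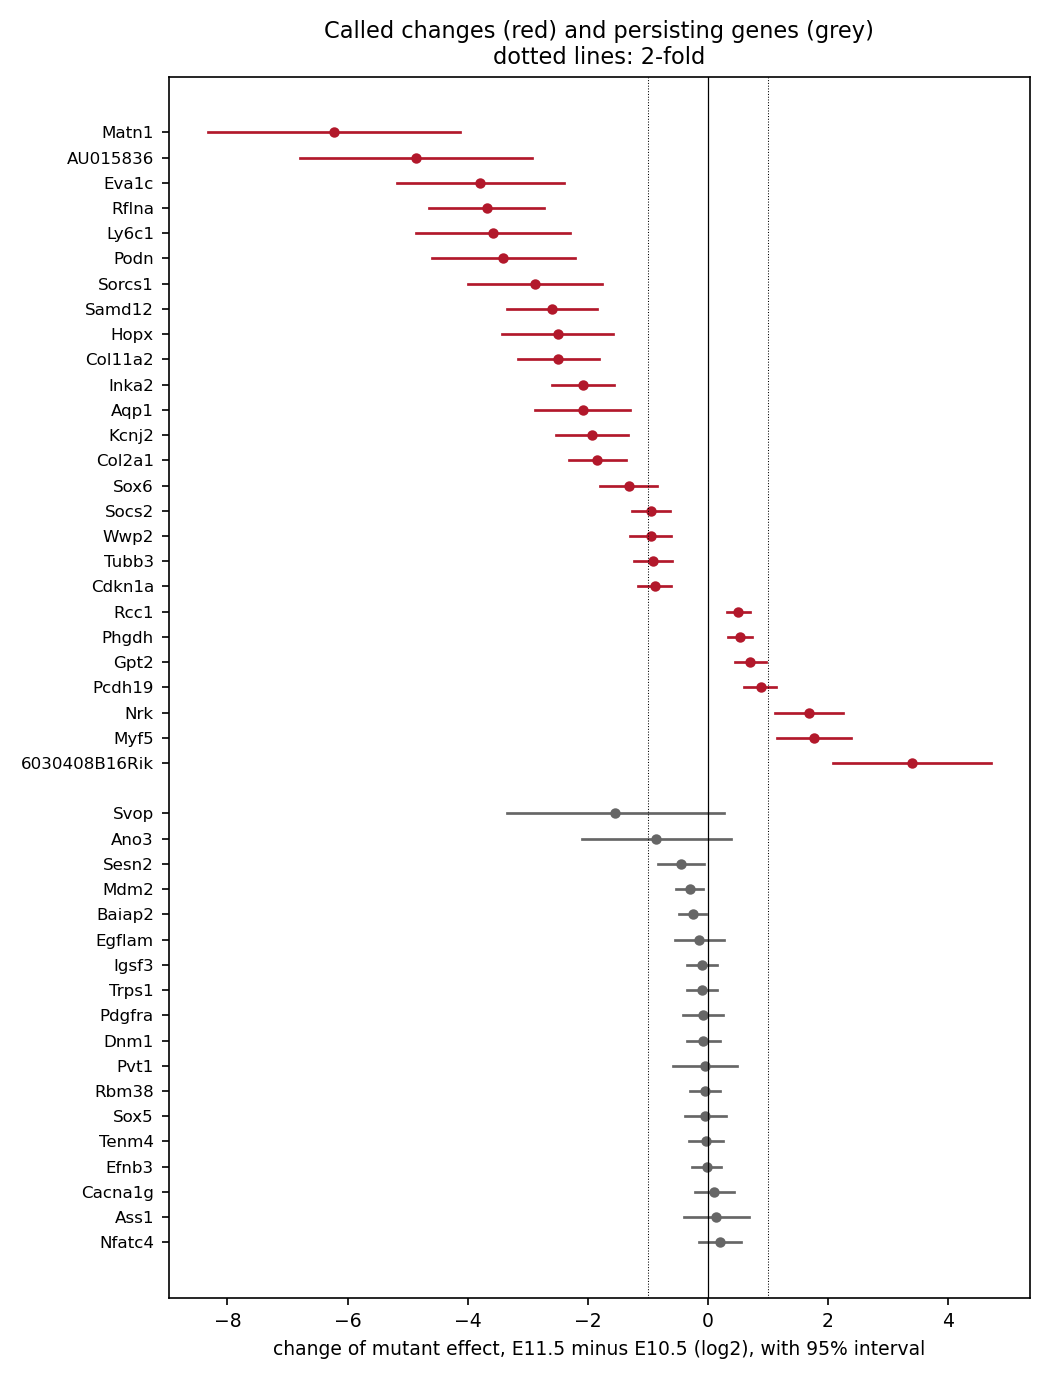
Change of the mutant effect from E10.5 to E11.5 (log2, points) with its 95% interval (lines) for the 26 genes with a called change (red) and for 18 of the most firmly called genes at both stages (grey); dotted lines mark a 2-fold change. The red intervals exclude 0 and are wide for low genes such as Matn1, and 16 of the 18 grey intervals lie within the dotted lines, Svop and Ano3 being the exceptions.

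Effects called at both stages had narrower intervals of the change than all genes. Passing the test at both stages itself favours genes with little spread and similar effects. Among the 3312 genes called at both stages in the same direction, the median size of the effect was 0.575 at E10.5 and 0.609 at E11.5 (log2), and 53.4% had the larger effect at E11.5. The 95% interval of the change lay within 2-fold either way in 78.5% and within 1.5-fold in 56.8%. Its median half-width was 0.321, against 0.542 over all genes. A 2-fold change is larger than the median effect, so an interval within it can still leave room for an effect to vanish. Of these 3312, 9 had a called change and 415 an unadjusted p under 0.05 (12.5%). In the others a missed threshold does not show equal effects, and the intervals give what these libraries allow.

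Named members of that group ranged from nearly equal effects to effects that could not be measured closely. Efnb3, an ephrin ligand, had 135, 139 and 149 against 63.4, 59 and 55.7 CPM at E10.5 and 151, 130 and 138 against 61.8, 58.7 and 52.8 at E11.5, with falls of 1.25 and 1.27 that differed by -0.02 (-0.26 to 0.22). Pdgfra, a growth factor receptor of mesenchyme, had 353 to 417 against 98.9 to 132 CPM and then 467 to 580 against 132 to 157, a change of -0.08 (-0.42 to 0.26). Trps1, a repressor in skeletal development, fell by 1.00 and 1.09, Tenm4, a teneurin, by 1.19 and 1.23, and Cacna1g, a calcium channel, by 1.78 and 1.68. On the higher side, Rbm38, an RNA-binding p53 target, had 1.01 and 0.96 (change -0.05, -0.30 to 0.20), Ass1, of arginine synthesis, 2.38 and 2.52, and Svop, a transporter-like gene, 8.16 and 6.62, that is 286-fold and 98.4-fold, with a wide interval of the change (-3.35 to 0.27).

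Cell division genes had small upward changes, none of which was called. Of 22 mitosis genes, none rose and 12 fell at E10.5, where 13.4% of all genes fell, and 6 rose and 2 fell at E11.5, where 14.8% and 16.1% did. The change lay above 0 in all 22, from 0.10 to 0.44 with a median of 0.31, against a median of -0.0045 over all genes, and 17 of 22 had an unadjusted p under 0.05 upward against 6.41% of all genes. No change passed adjustment in edgeR's quasi-likelihood test or in limma-voom, and 4 passed upward in DESeq2. Plk1, a mitotic kinase, had 179 to 211 against 163 to 178 CPM at E10.5 and 136 to 152 against 163 to 186 at E11.5 (change 0.44 ± 0.11, adjusted p = 0.108), and Cdk1 had 0.01 and 0.33 (change 0.31 ± 0.08, adjusted p = 0.128). The list's summed level fell with stage in controls, from 4450 to 4690 CPM to 3840 to 4320, and lay at 3700 to 3840 and 3700 to 4260 CPM in mutants.

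No change was called in replication or cohesin genes by edgeR, DESeq2 or limma-voom. Of 23 replication genes, none rose and 5 fell at E10.5, where 13.8% and 13.4% of all genes did. At E11.5 4 rose, near the 14.8% of all genes, and none fell, where 16.1% did. Their median effect went from -0.09 to 0.13, and the change was above 0 in 21 with a median of 0.23. An unadjusted p under 0.05 upward was found in 8, against 6.41% of all genes. Rrm2, a subunit of ribonucleotide reductase, had a change of 0.46 ± 0.14 (adjusted p = 0.164). Of 14 genes of cohesin and its regulators, 9 fell and none rose at E10.5. At E11.5 3 fell and 1 rose, not far from the shares of all genes. The median effect was -0.35 and -0.14, with a median change of 0.21. An unadjusted p under 0.05 was found in 3 of 14, all upward, against 6.41% of all genes. Rad21, the kleisin subunit, had -0.43 and -0.18 (change 0.25, 0.04 to 0.46, adjusted p = 0.281). Ccne1, the cyclin of entry into S phase, rose at both stages, with 104 to 112 against 123 to 145 CPM and then 62.9 to 77.8 against 121 to 147 (change 0.64 ± 0.13, adjusted p = 0.0647).

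Genes of hypoxia and glycolysis were divided in direction. Of 23 tested, 5 rose and none fell at E10.5, where 13.8% of all genes rose, and 9 rose and 1 fell at E11.5, where 14.8% rose. The change was above 0 in 11 and below 0 in 12, and the median effect went from 0.14 to 0.04. For the change, 6 had an unadjusted p under 0.05 upward and 1 downward, against 6.41% and 8.15% of all genes. EdgeR and limma-voom called 0, and DESeq2 4 upward and 1 downward. Ldha, which makes lactate, had 896 to 1010 against 1150 to 1190 CPM at E10.5 and 599 to 699 against 1080 to 1170 at E11.5 (change 0.52 ± 0.10, adjusted p = 0.0539). As with Rcc1, its controls were lower at E11.5 while the mutant libraries lay in much the same range at both stages. Pgk1 and Pkm, which make ATP in glycolysis, had changes of 0.55 ± 0.12 and 0.49 ± 0.11 (adjusted p = 0.0763 and 0.086). Beside Phgdh, the serine and folate enzyme genes Psat1 and Shmt2 rose at both stages, with changes of 0.36 ± 0.12 and 0.30 ± 0.10 that did not pass.

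Among 18 genes of the apical ectodermal ridge, rises were called for 13 early and for 10 late, where 13.8% and 14.8% of all genes rose, with no fall. Their median effect was 1.41 and 0.84, while the median change was -0.14, with 12 genes below 0 and 6 above. The change was called in 0 by edgeR or limma-voom and in 2 by DESeq2 (downward). An unadjusted p under 0.05 was found in 4, all downward, against 8.15% of all genes. Fgf8, the ridge signal, had 41.1, 56.3 and 45 against 150, 190 and 156 CPM at E10.5 and 20.9, 10.8 and 13.3 against 42.1, 49.3 and 104 at E11.5. It rose by 1.80 and by 2.12, and the difference had a wide interval (-0.86 to 1.49). Dlx5, which ridge and mesenchyme both express, had 3.96 to 7.38 against 14.3 to 18.1 CPM and then 14.7 to 24.7 against 11.3 to 17.6 (change -1.91 ± 0.34, adjusted p = 0.0532). Of 23 surface ectoderm markers, 21 rose early and 20 late, 20 of them at both stages. The medians were 1.10 and 0.88, and the change lay below 0 in 20 with a median of -0.22, with 0 of 23 at an unadjusted p under 0.05 in edgeR and 0 called by limma-voom or DESeq2.

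Among 17 genes of posterior identity and Shh response, 2 rose and 4 fell at E10.5, where 13.8% and 13.4% of all genes did, and 4 rose and 6 fell at E11.5, where 14.8% and 16.1% did. The change was called in 0 by edgeR or limma-voom and in 2 by DESeq2 (upward). An unadjusted p under 0.05 was found in 7, against 14.6% of all genes, and 6 of these were upward, against 6.41%. Hhip, a target and inhibitor of Shh, had 5.33 to 7.08 against 6.2 to 7.47 CPM at E10.5 and 3.51 to 5.76 against 10.8 to 14.6 at E11.5 (change 1.21 ± 0.27, adjusted p = 0.086). Smoc1, a matricellular gene, had effects of -2.51 and -1.04, and the change did not pass (adjusted p = 0.0916). Shh spread too widely for a comparison: the E11.5 controls had 7.57, 0.819 and 0.587 CPM and the mutants 0.655, 2.12 and 7.72, and the change was 0.92 ± 1.41 (-2.30 to 4.15).

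No change of effect was called by edgeR or limma-voom in the macrophage, platelet, erythroid or endothelial lists. Of 22 macrophage markers, 13 were called higher early and 19 late, where 13.8% and 14.8% of all genes were. For the change 3 had an unadjusted p under 0.05, against 14.6% of all genes. Their summed level was 45.3 to 61.3 against 78.7 to 128 CPM and then 90 to 112 against 180 to 370. Lyz2, a lysozyme gene, had 1.6, 3.5 and 4.39 CPM in E10.5 mutants and 14.8, 8.42 and 7.67 in E11.5 mutants (change 1.47 ± 0.49, adjusted p = 0.207). The 11 platelet markers had a change below 0 in every one, from -2.63 to -1.03. Of them 7 had an unadjusted p under 0.05, against 8.15% of all genes downward, and DESeq2 called 4. Their median change was -1.66, further from 0 than the -0.95 of the cartilage list. Their sum was 22.7 to 35.1 against 28 to 77.9 CPM at E10.5 and 47.5 to 80.5 against 26.5 to 52.3 at E11.5. Itgb3, a platelet integrin subunit, had 5.81 to 9.29 against 6.64 to 15.4 CPM and then 13.8 to 22.6 against 5.95 to 8.29 (change -2.02 ± 0.41, adjusted p = 0.0735). Of 20 erythroid markers, 6 rose early and 1 late, where 13.8% and 14.8% of all genes did. For the change 0 had an unadjusted p under 0.05 or a call by DESeq2. Of 29 endothelial markers 13 rose early, where 13.8% of all genes did, and 4 late, near the 14.8% of all genes. An unadjusted p under 0.05 for the change was found in 4 of the 29, near the 14.6% of all genes, with 1 called by DESeq2. Eng, an endothelial receptor, had rises of 1.07 and 0.50 (change -0.57 ± 0.13, adjusted p = 0.086). The part of these cells in the called changes was not tested.

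**Figure D4:**
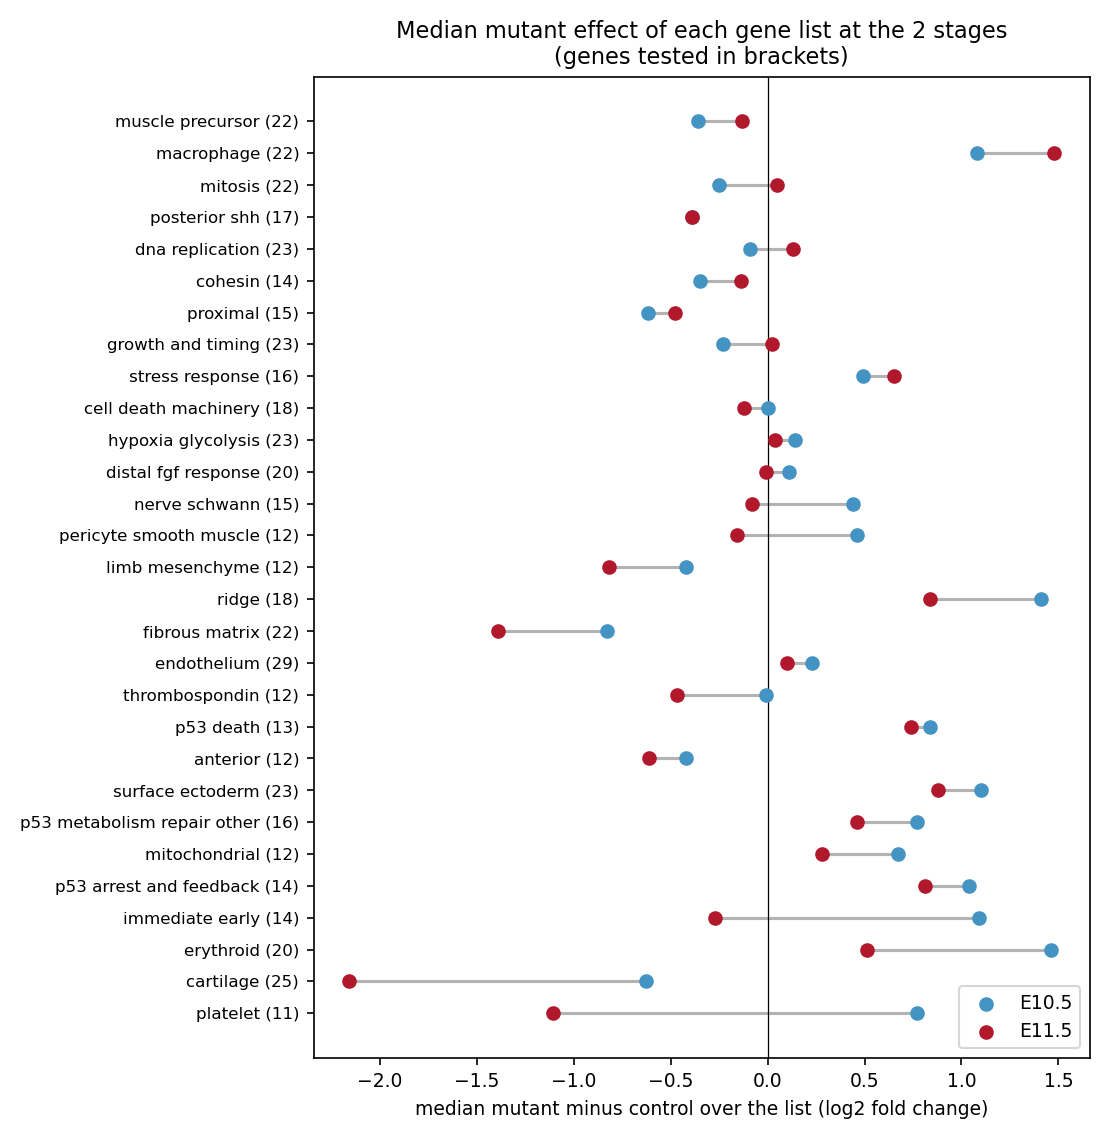
Median mutant effect (log2 fold change of mutant over control) of each gene list except that of embryo sex, at E10.5 (blue) and E11.5 (red). The number of genes tested is in brackets, and lists are ordered by the median change. Cartilage and platelet lists have the longest segments toward lower values, the p53 and surface ectoderm lists stay above 0 at both stages, and the mitosis and replication lists shift from below to above 0.

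Genes that had already changed a day earlier kept a large effect. In a fit of the 6 E9.5 libraries alone, 5 genes were called, all higher in mutants: Ptprv, Inka2, Alox5, Zfp365 and Cdkn1a. Ptprv, a p53-induced phosphatase gene, had rises of 2.80 at E9.5, 4.88 at E10.5 and 4.38 at E11.5, Alox5, a lipoxygenase, of 4.04, 4.52 and 3.31 in the same order, and Zfp365, which acts at stalled replication forks, of 2.28, 3.31 and 2.13. Cdkn1a had 2.38 and Inka2 3.61 at E9.5. The change from E10.5 to E11.5 lay below 0 in all 5, and it passed the test in Inka2 and Cdkn1a. These genes were picked on libraries outside the comparison of E10.5 with E11.5.

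Precision differed widely with abundance. The median half-width of the 95% interval of the change was 0.542 over all genes (log2), from 1.83 for genes under 1 CPM (log2 CPM under 0) to 0.234 for those with a log2 CPM of 6 or more. The share of genes whose half-width was under 1, that is under 2-fold, was 1.52% in the lowest class and 99% in the highest. Called changes made up 3 of the 5007 genes in the lowest class (0.0599%), 8 of 2817 with a log2 CPM of 0 to 2 (0.284%), 5 of 2905 at 2 to 4 (0.172%), 3 of 4734 at 4 to 6 (0.0634%) and 7 of 4102 in the highest (0.171%). The called share did not follow the half-width, which was 0.929 at 0 to 2 and 0.295 at 4 to 6.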

How the data were processed

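Total RNA of mouse forelimb buds was sequenced. The submitters' processing notes name cutadapt, STAR, featureCounts and limma on mm10. Per the file headers, the deposited counts are raw counts per gene from featureCounts 1.6.4, reverse-stranded and paired-end, over the exons of the GENCODE M22 annotation. Read pairs with several mapping places are not counted under the tool's defaults, so genes with near-identical copies are counted low. A deposited table holds log2 FPKM values made by the authors, with no statement of further scaling; it served only as an alternative. Symbols were matched by identifier for 99.8% of 55487 identifiers.

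The 12 libraries were fitted in edgeR 4.0.16 (R 4.3.3). Low genes were removed by filterByExpr, libraries scaled by TMM, and 1 robust quasi-likelihood model fitted to the 4 groups. The change is the contrast of mutant minus control at E11.5 with mutant minus control at E10.5, and a positive value is an effect that moved up. All adjusted p-values come from the quasi-likelihood test of edgeR, adjusted by the Benjamini-Hochberg method over 19565 genes, with a threshold of 0.05; "called", "rose" and "fell" mean past it. Differences are log2 values ± SE, and 95% intervals use the same SE. CPM are counts divided by the TMM-scaled library size. The common biological coefficient of variation was 0.191, and spread between libraries limited precision more than counting error did in all but the lowest genes. Scripts were checked on simulated data.

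The contrast, the 30 gene lists (520 of 525 genes tested) and the naming rule were chosen with earlier results of these data known. Named were Esco2, Sox9, Trp53, Cdkn1a, Mdm2, Cd47, Fgf8 and Shh; up to 12 called changes in each direction, by adjusted p, with a mean log2 CPM of at least 1; the 10 firmest genes in each direction called at both stages; and the 3 members of each list with the smallest p for the change. Some names were left out, and predicted genes were left out of ranked picks. The remaining called genes and some further list members (among them Matn4, Wwp2, Bax and Prrx1) were named after their values were seen, to account for all 26 calls and to give each role an example. Alternatives were DESeq2 (version 1.42.0) and its size factors, limma-voom (limma 3.58.1), no low-count filter, all 18 libraries, blocks for replicate number and label code, removal of a gene length trend, the log2 FPKM table, and leaving out each library. The same replicate number did not pair libraries: deviations from group means of same-numbered libraries had correlations of -0.285 to 0.243. No replicate pair agreed within sampling noise.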

Additional observations from a re-analysis of the deposited data

Results flagged for a closer look

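The mutant effect differed between E10.5 and E11.5, by the test of the difference itself, in 26 genes (0.133% of those tested). Values in brackets are log2 changes of the effect, E11.5 minus E10.5. It moved down in Matn1 (-6.23), AU015836 (-4.86), Eva1c (-3.79), Rflna (-3.68), Ly6c1 (-3.58), Podn (-3.41), Sorcs1 (-2.88), Samd12 (-2.59), Hopx (-2.50), Col11a2 (-2.49), Aqp1 (-2.08), Inka2 (-2.08), Kcnj2 (-1.93), Col2a1 (-1.84), Sox6 (-1.32), Socs2 (-0.95), Wwp2 (-0.95), Tubb3 (-0.91) and Cdkn1a (-0.88). It moved up in Rcc1 (0.51), Phgdh (0.53), Gpt2 (0.71), Pcdh19 (0.88), Nrk (1.68), Myf5 (1.77) and 6030408B16Rik (3.40). Mutant and control libraries were apart at both stages in 18 of the 26 and overlapped at 1 stage or more in 8. The share over all genes is not given here. The 26 were chosen by a test on the same libraries, so these counts describe them and do not support the calls. The call held in all 12 fits that left out 1 library for 5 genes and in 2 to 6 of them for 18. No explanation of these differences was tested.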

How the results depend on the processing

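The count of called changes was the least stable value. It was 7 upward and 19 downward as reported, 162 and 403 with DESeq2, 3 and 9 with limma-voom, 39 and 105 without the low-count filter, 1 and 14 with all 18 libraries, 0 and 11 with the label code block, 16 and 27 with the length trend removed, and 12 and 19 on the deposited log2 FPKM. The share of upward calls was 26.9% as reported, 37.2% with the length trend removed and 38.7% on log2 FPKM. With the replicate block it was 5 and 19, and the numbers do not pair the samples (correlations of same-numbered libraries had a median of -0.0072, of differently numbered ones 0.0179). Of the 26 genes, 26 stayed called with DESeq2 size factors, 25 with DESeq2 (of 25 with a value), 12 with limma-voom, 25 without the filter, 9 with 18 libraries, 16 with the replicate block, 1 with the label code block, 25 with the length trend removed and 21 on log2 FPKM, and all 26 kept their sign in each.

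Leaving out 1 library gave 0 to 139 upward and 5 to 223 downward changes. It gave 1820 to 2888 higher and 1898 to 2859 lower genes at E10.5, 2180 to 2810 and 2323 to 3078 at E11.5, and 1267 to 1598 and 1296 to 1638 at both stages. With all 18 libraries 1469 and 1333 were called at E10.5, 1613 and 1916 at E11.5, and 781 and 854 at both. With the label code block 1334 and 1555 were called at E11.5 and 866 and 955 at both. The cause of these differences was not tested. Among 132 genes recomputed, the sign of the change turned with the label code block in Svop (0.58), Trp53 (-0.04), Cacna1g (-0.20), Fos (0.08), Nfatc4 (-0.24), Pvt1 (0.03), Epcam (0.49) and Eif2s3y (0.01), with the length trend removed in Rbm38 (0.01) and Efnb3 (0.02), and on log2 FPKM in Efnb3 (0.01). Leaving out 1 library turned it in Ass1 (-0.05 to 0.29), Cacna1g (-0.01 to 0.23), Efnb3 (-0.07 to 0.04), Eif2s3y (-0.14 to 0.07), Fgf8 (-0.20 to 0.63), Pdgfra (-0.19 to 0.02), Pvt1 (-0.14 to 0.08), Rbm38 (-0.14 to 0.03), Shh (-0.38 to 3.02), Sox5 (-0.11 to 0.08), Tenm4 (-0.12 to 0.04) and Uty (-0.06 to 0.08), none of which had a called change.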

Other observations

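Further genes with different values at the 2 stages had no called change. Ngfr and Erbb3, receptors of Schwann cell precursors, rose at E10.5 (0.78 and 0.77) and had -0.38 and -0.14 at E11.5, with changes of -1.16 ± 0.30 and -0.91 ± 0.26 (adjusted p = 0.14 and 0.157). The 15 nerve and Schwann cell genes listed were divided, with a change above 0 in 7 and below 0 in 8. Their median change was -0.10, and the range was -1.64 to 0.85. An unadjusted p under 0.05 was found downward in 5 and upward in 0, against 8.15% and 6.41% of all genes. Rgs5, a pericyte marker, rose at both stages, with 3.87 to 4.68 against 10.1 to 11.8 CPM at E10.5 and 1.12 to 1.67 against 6.31 to 8.93 at E11.5 (change 1.09 ± 0.26, adjusted p = 0.0988). Its list of 12 pericyte and smooth muscle genes went the other way. In it 1 rose and 4 fell at E10.5, where 13.8% and 13.4% of all genes did. At E11.5 1 rose and 3 fell, where 14.8% and 16.1% did. The list's summed level was 570 to 582 against 362 to 391 CPM, then 637 to 771 against 471 to 567. The immediate early genes Egr1 and Fos had means of 3.15 and 0.99 CPM in E10.5 controls and 22.6 each in E11.5 controls, and their changes were -3.59 ± 1.35 and -4.99 ± 2.00 (adjusted p = 0.299 and 0.323). Pax9, a patterning gene of the anterior limb, had means of 19.9 CPM in E11.5 controls and 1.93 in E11.5 mutants, with falls of 1.61 and 3.36 that differed by -1.75 ± 0.61 (adjusted p = 0.234). Pthlh, which encodes a signal of early cartilage and was picked after its values were seen, had 0.114 to 0.168 against 0.253 to 0.673 CPM at E10.5 and 0.774 to 2.7 against 0.429 to 0.655 at E11.5 (1.69 and -1.79, both called; change adjusted p = 0.0645).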
